A study of Mus musculus with 44 samples.

Results

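The genes described here are 29 mouse genes of cholesterol and fatty acid synthesis, listed by name out of the 19733 genes of an organoid RNA-seq count table. They comprised 7 genes of the mevalonate steps, 9 of the squalene and sterol steps and 5 control genes that encode or control the sterol-regulated transcription factors. The others were the sterol carrier gene Stard4, the ketone-body activating gene Aacs and 6 genes of fatty acid synthesis and modification. All 29 passed the filter on low counts in both experiments, and the lowest count of any member in any library was 91.

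The libraries came from C57BL/6 mouse organoids, which are epithelial cultures grown in a gel, and fell into 2 experiments that were never fitted together. In the first, isogenic gastric organoid lines had been transduced with lentivirus for the intestinal transcription factors CDX2 (3 libraries) or HNF4A (3), small intestine organoids (2) gave the native intestinal state, and gastric lines expressing GFP (3) were the control. In the second, all stomach antrum organoids overexpressed HNF4A, and they were homozygous (3), heterozygous (3) or wild type (3) for a germline CRISPR-Cas9 deletion of an enhancer 3' of Cdx2. The question addressed was how far CDX2 and HNF4A move gastric cells toward the intestinal programme and what the enhancer contributes. A replicate number stood for a line in the first experiment. The labels do not say whether lines or replicates came from separate animals, so p-values measure the spread between libraries, which may be technical.

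Cholesterol is built from acetyl-CoA through mevalonate, isoprenoid diphosphates, squalene and lanosterol, and fatty acids are built from the same precursor. Both routes are controlled by the SREBP transcription factors. When membrane sterol is low, Scap escorts SREBP out of the endoplasmic reticulum for cleavage, and when sterol is high the Insig proteins hold Scap back. The intestinal epithelium both makes cholesterol and takes it up from the lumen.

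Total counts ran from 6180498 to 11007809 in the first experiment and from 8173640 to 11465309 in the second. Levels are given as CPM, the counts scaled to a common library size with the TMM method, and are compared between libraries but not between genes. Cdx2 itself was at 200, 288 and 62 CPM in CDX2 lines, 50.7, 29.1 and 22.6 CPM in HNF4A lines, 282 and 272 CPM in small intestine organoids and 3.95, 7.44 and 3.19 CPM in GFP lines. In the enhancer experiment it was at 0.199, 1.36 and 0.585 CPM in homozygous, 18.4, 5.55 and 9.31 CPM in heterozygous and 16.7, 26.8 and 58.5 CPM in wild-type organoids. Of 7 gastric pit and gland markers, 7 had counts in GFP lines, where they summed to 2090 to 7180 CPM, and 6 had counts in small intestine organoids, where they summed to 0.931 to 10.1 CPM with Muc5ac at 0. In these bulk libraries a different number of cells of a type and a different amount of RNA per cell cannot be told apart.

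The stretches of 250 bases before the transcription start are shown for 4 members that differ in what was measured: Hmgcs1, which holds a sterol response element, Idi1 and Elovl6, which were higher in small intestine organoids, and Insig2, which was lower. They are from RefSeq on GRCm38.p6, at chr13:119690101-119690350 on the plus strand for Hmgcs1, chr13:8885356-8885605 on the plus strand for Idi1, chr3:129532136-129532385 on the plus strand for Elovl6 and chr1:121332590-121332839 on the minus strand for Insig2, for which the table lists 3 starts and the one with the most CCAAT matches is shown. Part of the Insig2 stretch lies within the annotated gene, which reaches 121332662. The Insig2 CCAAT matches 46 and 29 bases before the shown start are in that part. Capitals mark CCAAT, the motif of NF-Y, and TCACNCCAC, the form of the sterol response element searched for SREBP, on either strand.
Hmgcs1: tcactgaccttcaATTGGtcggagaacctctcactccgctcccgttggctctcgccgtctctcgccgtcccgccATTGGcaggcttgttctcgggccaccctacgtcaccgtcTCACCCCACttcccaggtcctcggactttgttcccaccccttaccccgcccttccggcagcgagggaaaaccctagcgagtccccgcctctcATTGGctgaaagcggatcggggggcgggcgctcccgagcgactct
Idi1: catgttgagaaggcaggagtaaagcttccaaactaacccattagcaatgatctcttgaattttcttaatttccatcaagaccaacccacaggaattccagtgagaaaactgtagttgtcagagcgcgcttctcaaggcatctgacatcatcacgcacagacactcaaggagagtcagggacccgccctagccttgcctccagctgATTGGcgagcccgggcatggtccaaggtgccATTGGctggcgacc
Elovl6: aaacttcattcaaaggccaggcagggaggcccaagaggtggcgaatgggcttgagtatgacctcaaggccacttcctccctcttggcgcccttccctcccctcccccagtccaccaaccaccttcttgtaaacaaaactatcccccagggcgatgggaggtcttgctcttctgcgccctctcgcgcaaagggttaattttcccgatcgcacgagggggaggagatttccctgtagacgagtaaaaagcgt
Insig2: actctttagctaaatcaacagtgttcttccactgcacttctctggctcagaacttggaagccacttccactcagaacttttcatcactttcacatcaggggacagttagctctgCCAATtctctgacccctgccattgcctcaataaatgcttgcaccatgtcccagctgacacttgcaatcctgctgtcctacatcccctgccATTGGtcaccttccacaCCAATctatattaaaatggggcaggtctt

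Hmgcs1 held 3 CCAAT matches and the only TCACNCCAC match among the 23 members searched, 137 bases before its start. None of the marked matches overlapped. Idi1 held 2 CCAAT matches, Insig2 held 3 and Elovl6 held none. The promoter set used held 23 of the 29 members, and Fdft1, Scd1, Stard4, Scd2, Sqle and Fdps had no entry in it. CCAAT occurred on either strand in 17 of the 23 (73.9%), against 40.5% of the 9767 tested genes with a promoter in the table. TCACNCCAC occurred in 1 of 23 (4.35%) against 1.27%. The GC-box motif GGGCGG occurred in 18 of 23 (78.3%) against 63.4%, and the CDX-type motif TTTATNG in 3 of 23 (13.0%) against 7.81%. The HNF4-type motif CAAAGTCCA occurred in 0 of 23 against 0.532%. Matches of different motifs were counted separately even where they overlapped. CCAAT was found in 7 of the 11 members with a promoter that were called higher in small intestine organoids than in GFP lines, in both that were called lower and in 8 of the 10 that were not called. A match describes only the letters in this window.

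Small intestine organoids had higher levels of the cholesterol synthesis genes than GFP gastric lines. In edgeR's quasi-likelihood test with Benjamini-Hochberg adjustment over 12720 genes, 16 of the 29 members passed an adjusted p of 0.05, 14 of them higher and 2 lower, where 27.1% of all tested genes were called, 14.2% higher and 12.9% lower. The log2 fold change was positive for 27 members, with a median of 1.31 against -0.01 over all genes tested. For 23 members both small intestine libraries lay above all GFP libraries and for 2 both lay below, where 59.3% of all tested genes had groups without overlap, 30.4% higher and 28.9% lower. Called higher were 4 of 7 mevalonate genes, 6 of 9 squalene and sterol genes, Stard4, Aacs and 2 of 6 fatty acid genes, and called lower were 2 of 5 control genes; the groups were not tested against each other.

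**Figure D1:**
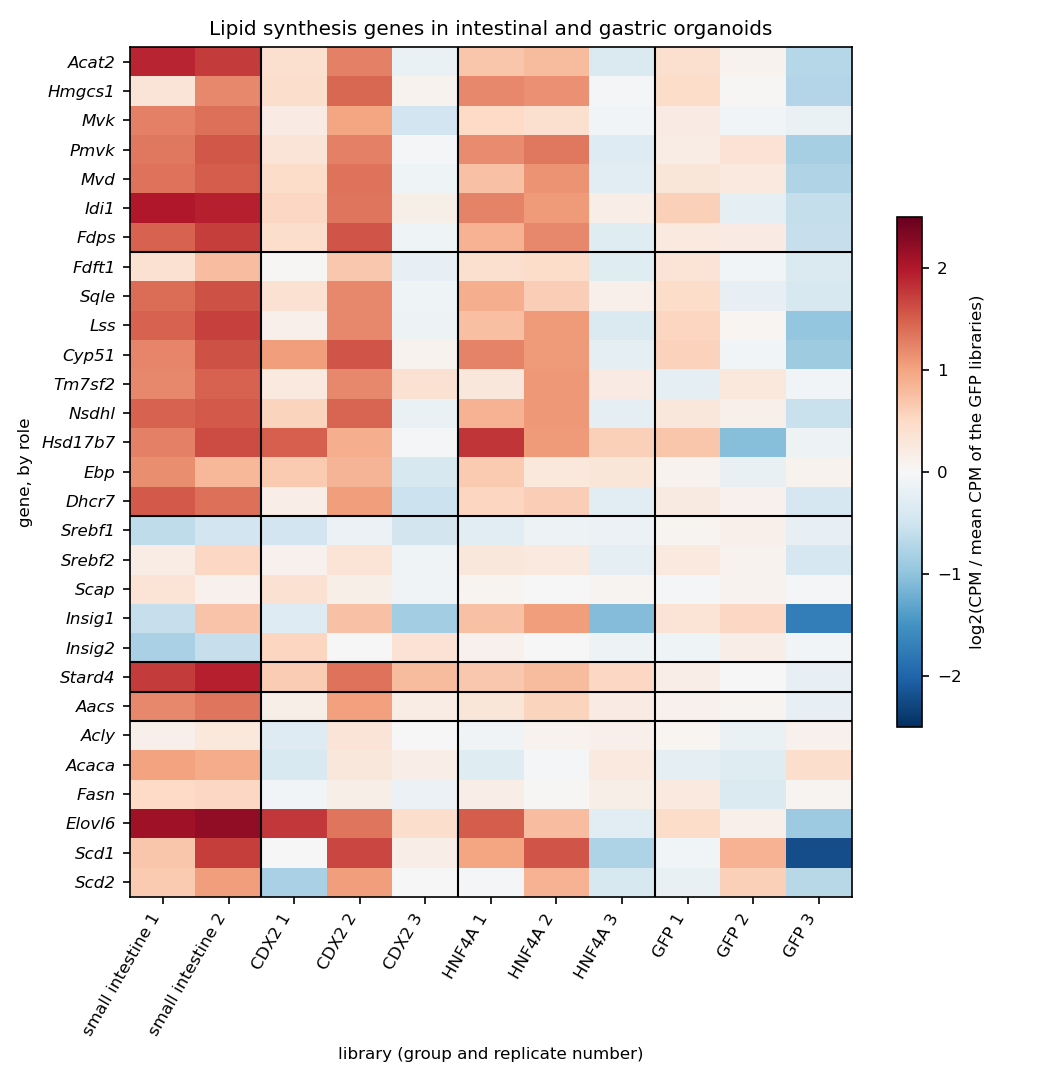
Heat map of the 29 genes (rows, in role groups divided by black lines) in the 11 libraries of the first experiment (columns), coloured by the log2 ratio of each library's CPM to the mean CPM of the GFP libraries. The 2 small intestine columns are red for most mevalonate and sterol genes, CDX2 2 is the reddest gastric column and GFP 3 the bluest.

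All 7 mevalonate genes had positive fold changes in small intestine organoids against GFP lines, and 4 were called. Idi1, the isomerase that makes dimethylallyl diphosphate (chr13:8885606-8892396), stood at 117 and 112 CPM in small intestine organoids, 42, 73.6 and 32.5 CPM in CDX2 lines, 68.5, 61.2 and 32.9 CPM in HNF4A lines and 43.8, 24.5 and 19.2 CPM in GFP lines. Both intestinal libraries were above every gastric library, and the log2 fold change against GFP lines was 1.97 ± 0.43 (SE; edgeR adjusted p = 0.0104). Acat2, the cytosolic thiolase that starts the pathway, stood at 208 and 186 CPM in small intestine organoids, 72.8, 132 and 49.2 CPM in CDX2 lines, 89.3, 95.9 and 42.9 CPM in HNF4A lines and 73.5, 59.1 and 33.7 CPM in GFP lines. Acat2 has a neighbouring paralog, Acat3, with which reads may have been shared. Acat2 too was above every gastric library, with a log2 fold change against GFP lines of 1.83 ± 0.46 (edgeR adjusted p = 0.0178). Fdps, which makes farnesyl diphosphate, and the mevalonate kinase gene Mvk were also called, at 1.61 ± 0.51 (edgeR adjusted p = 0.0427) and 1.31 ± 0.35 (edgeR adjusted p = 0.0229). Mvd and Pmvk, the decarboxylase and the phosphomevalonate kinase, both had a log2 fold change of 1.43 and missed the threshold with edgeR adjusted p-values of 0.0503 and 0.0633. Hmgcs1, the HMG-CoA synthase, was the member of the group with overlapping libraries, at 245 and 455 CPM in small intestine organoids and 272, 200 and 118 CPM in GFP lines.

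Of the 9 squalene and sterol genes 6 were called higher in small intestine organoids, and in all 9 both intestinal libraries exceeded all GFP libraries. Sqle, the squalene epoxidase, stood at 222 and 255 CPM in small intestine organoids, 111, 194 and 78.7 CPM in CDX2 lines, 159, 130 and 92.7 CPM in HNF4A lines and 116, 73.7 and 64.6 CPM in GFP lines. Its log2 fold change against GFP lines was 1.49 ± 0.38 (edgeR adjusted p = 0.0184). Dhcr7, the reductase of the last step to cholesterol, stood at 143 and 128 CPM in small intestine organoids, 55.1, 102 and 34.1 CPM in CDX2 lines, 71, 75.5 and 41.2 CPM in HNF4A lines and 57.5, 53.3 and 36.8 CPM in GFP lines. For both genes the intestinal libraries were above every gastric library, and for Dhcr7 the log2 fold change against GFP lines was 1.46 ± 0.41 (edgeR adjusted p = 0.0263). The lanosterol synthase Lss (1.59 ± 0.52, edgeR adjusted p = 0.0465), the sterol demethylation enzyme Nsdhl (1.5 ± 0.47, edgeR adjusted p = 0.0398), the sterol reductase Tm7sf2 (1.35 ± 0.34, edgeR adjusted p = 0.0185) and the sterol isomerase Ebp (1.00 ± 0.31, edgeR adjusted p = 0.039) were the other called members. Not called were 3 enzymes: the lanosterol demethylase Cyp51 at a log2 fold change of 1.42, the sterol ketoreductase Hsd17b7 at 1.45 and the squalene synthase Fdft1 at 0.59. Their edgeR adjusted p-values were 0.0718, 0.0701 and 0.19. Tm7sf2 and Fdft1 overlap the protein-coding genes Vps51 and Ctsb in the annotation, so reads in the overlap may have been counted for either.

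Stard4, which carries cholesterol through the cytosol, had the smallest adjusted p of all members. It stood at 200 and 227 CPM in small intestine organoids, 91.7, 152 and 103 CPM in CDX2 lines, 94.6, 103 and 84.7 CPM in HNF4A lines and 66.4, 60.1 and 51.5 CPM in GFP lines. The groups did not overlap between small intestine organoids and any gastric group, nor between CDX2 or HNF4A lines and GFP lines. The log2 fold change of small intestine organoids against GFP lines was 1.85 ± 0.22 (edgeR adjusted p = 0.00104). Aacs, which activates acetoacetate for lipid synthesis, stood at 152 and 168 CPM in small intestine organoids, 73.7, 134 and 75.6 CPM in CDX2 lines, 81.4, 97.2 and 76.6 CPM in HNF4A lines and 71.8, 69.2 and 57.6 CPM in GFP lines, with a log2 fold change against GFP lines of 1.27 ± 0.25 (edgeR adjusted p = 0.00738).

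In fatty acid synthesis 2 of 6 genes were called, all 6 had positive fold changes and 5 were higher without overlap. Elovl6, which elongates palmitate (chr3:129532386-129638495), stood at 135 and 145 CPM in small intestine organoids, 106, 79 and 42 CPM in CDX2 lines, 89, 53.2 and 25.7 CPM in HNF4A lines and 42.6, 34.2 and 16.7 CPM in GFP lines. Its log2 fold change against GFP lines of 2.16 ± 0.53 was the highest of the 29 (4.48-fold, edgeR adjusted p = 0.0164), and within each gastric group line 1 was highest and line 3 lowest. Acaca, the acetyl-CoA carboxylase, stood at 153 and 144 CPM in small intestine organoids, 58.4, 92.5 and 86 CPM in CDX2 lines, 61.7, 73.8 and 90.4 CPM in HNF4A lines and 63.9, 61.6 and 103 CPM in GFP lines, a log2 fold change against GFP lines of 0.96 ± 0.27 (edgeR adjusted p = 0.0273). Acaca overlaps Tada2a in the annotation. Fasn, the fatty acid synthase, was at 631 and 642 CPM in small intestine organoids and at 529, 349 and 469 CPM in GFP lines, which did not overlap, but its log2 fold change of 0.50 missed the threshold (edgeR adjusted p = 0.0855). Acly, which makes cytosolic acetyl-CoA, had a log2 fold change of 0.20 (edgeR adjusted p = 0.485). The desaturase genes Scd1 and Scd2, similar neighbouring paralogs whose reads may have been divided between them, had 1.29 and 0.86 (edgeR adjusted p = 0.276 and 0.271). Scd1 spread 8.58-fold between GFP lines, at 121, 233 and 27.2 CPM, and overlapped the 206 and 419 CPM of small intestine organoids.

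Of the 5 control genes 2 were called lower and 3 had positive fold changes without passing the test. Insig2, which retains Scap (chr1:121304353-121332662), stood at 34.8 and 40.7 CPM in small intestine organoids, 87.9, 60.3 and 78.4 CPM in CDX2 lines, 65.2, 61.3 and 55.3 CPM in HNF4A lines and 56, 68.5 and 57.6 CPM in GFP lines. Both intestinal libraries were below every gastric library, and the log2 fold change against GFP lines was -0.68 ± 0.20 (edgeR adjusted p = 0.0284). Srebf1, which encodes the SREBP forms that favour fatty acid genes (chr11:60199084-60224186), stood at 165 and 184 CPM in small intestine organoids, 184, 231 and 185 CPM in CDX2 lines, 210, 234 and 232 CPM in HNF4A lines and 268, 278 and 222 CPM in GFP lines. It was lower in small intestine organoids than in GFP lines by a log2 fold change of -0.56 ± 0.17 (edgeR adjusted p = 0.0386); the gene overlaps Rai1 in the annotation. Srebf2, which encodes the form that favours sterol genes, Scap and Insig1 had log2 fold changes of 0.35, 0.23 and 0.21 and were not called, although both intestinal libraries of Scap lay above all GFP libraries. Insig1, itself a sterol-regulated gene in mammals, was at 124 and 304 CPM in small intestine organoids and 233, 265 and 55.7 CPM in GFP lines.

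**Figure D2:**
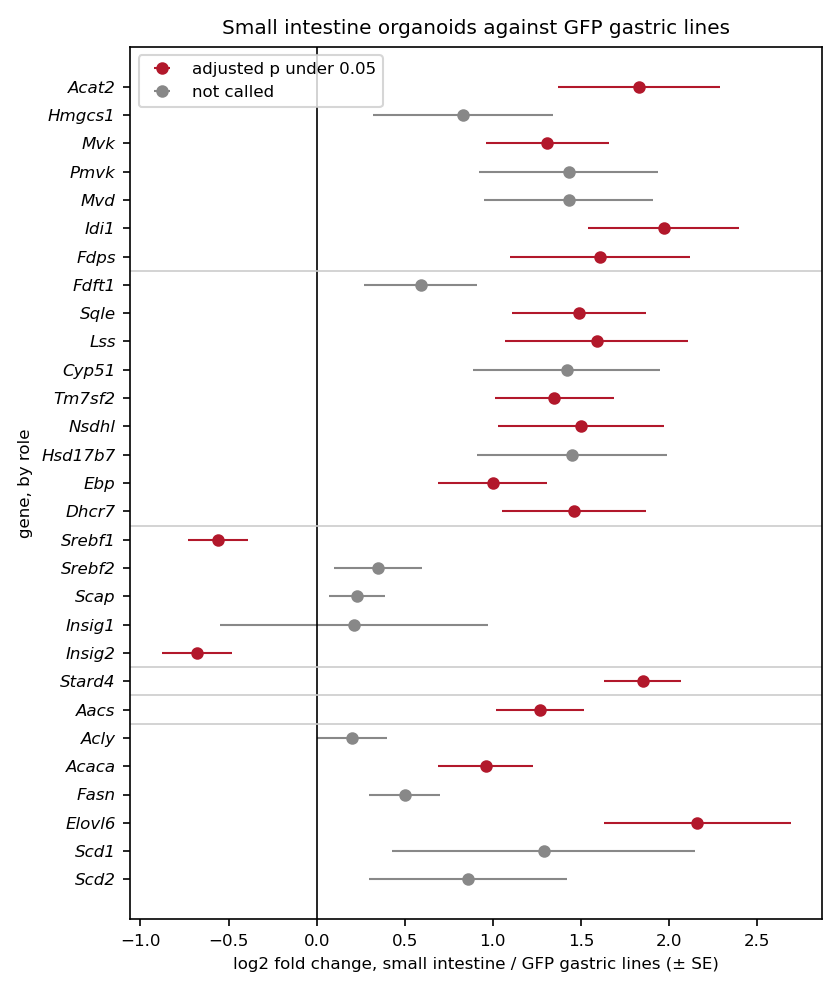
Log2 fold change of small intestine organoids (n = 2) over GFP gastric lines (n = 3) for the 29 genes, with bars of 1 SE from edgeR and red points for adjusted p under 0.05. Elovl6, Idi1, Stard4 and Acat2 lie furthest right, and Srebf1 and Insig2 are the red points left of 0.

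When 1 library was left out of small intestine organoids against GFP lines, fewer of all tested genes were called, at most 2689 against 3448. The count of called members fell too, to 11 without GFP 1, 6 without GFP 2 and 7 without GFP 3. Since calls fell over all genes, these counts do not describe the members alone. Stard4 and Aacs were called in each fit without a GFP library. Without small intestine 1 or 2 a lone intestinal library was left, and the members' median log2 fold change was 1.38 and 1.2. Proliferation markers moved with the enzymes: 8 of 8 had counts, they summed to 1760 to 2350 CPM in small intestine organoids and 558 to 885 CPM in GFP lines, and 6 of 8 were called higher. Enterocyte markers summed to 649 to 968 CPM in small intestine organoids and 334 to 403 CPM in GFP lines, with 7 of 7 tested called higher. Vil1 made up most of the sum in GFP lines, at 311, 387 and 366 CPM. The median log2 fold change of the tested enterocyte markers was 7.05. The part of either list in the lipid genes was not tested. Of the 5 adipocyte markers, Plin1 and Lep were at 0 in all 20 libraries and Adipoq reached 0.158 CPM at most. Cidec, a lipid droplet gene, was at 4.56 and 9.44 CPM in small intestine organoids and 1.39, 1.7 and 0 CPM in GFP lines, without overlap and not called, and reached 19.7 CPM in CDX2 1 and 21.7 CPM in HNF4A 1.

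Against CDX2 lines 2 of 29 members were called, where 11.3% of all tested genes were called, 5.63% higher and 5.67% lower. Stard4 was higher in small intestine organoids by a log2 fold change of 0.89 ± 0.22 (edgeR adjusted p = 0.0335) and Insig2 was lower, at -1.0 ± 0.20 (edgeR adjusted p = 0.0171). The median log2 fold change of the members was 0.67 against -0.03 over all genes, and without overlap 13 members were higher and 2 lower, where 24.2% and 23.6% of all tested genes were. Acaca at 0.91 (edgeR adjusted p = 0.0577) and Aacs at 0.76 (edgeR adjusted p = 0.0802) did not pass. Hmgcs1 was at 245 and 455 CPM in small intestine organoids and 266, 529 and 210 CPM in CDX2 lines, a log2 fold change of 0.06. The count of called members was 1 without CDX2 1, 6 without CDX2 2 and 1 without CDX2 3, and it was 0 without the gastric libraries of line 3. With a lone intestinal library the median of the members was 0.8 without small intestine 1 and 0.66 without small intestine 2. The median of the members was 1.04 without CDX2 2. In every fit with 1 library left out fewer of all tested genes were called, at most 1401 against 1437. Without line 3 there were 566. Of the 8 proliferation markers 6 were called higher in small intestine organoids and 8 were higher without overlap, with a median log2 fold change of 1.44. Their part in the members' values was not tested.

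Against HNF4A lines 4 of 29 members were called, where 12.5% of all tested genes were called, 5.83% higher and 6.64% lower. Stard4 (1.18 ± 0.22, edgeR adjusted p = 0.0135), Acaca (0.98 ± 0.27, edgeR adjusted p = 0.0442) and Aacs (0.91 ± 0.25, edgeR adjusted p = 0.0447) were higher in small intestine organoids, and Insig2 was lower (-0.68 ± 0.20, edgeR adjusted p = 0.0483). The median log2 fold change of the members was 0.61, and without overlap 18 were higher and 2 lower, where 25.5% and 24.3% of all tested genes were. The count of called members was 1 without HNF4A 1, 2 or 3, and 2 without the gastric libraries of line 3. With a lone intestinal library the median of the members was 0.84 without small intestine 1 and 0.62 without small intestine 2. The median of the members was 0.94 without HNF4A 2. In every fit with 1 library left out fewer of all tested genes were called, at most 1423 against 1585. Without line 3 there were 989. Of the 8 proliferation markers 5 were called higher in small intestine organoids and 8 were higher without overlap, with a median log2 fold change of 1.35. The 3 intestinal comparisons share their small intestine libraries.

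**Figure D3:**
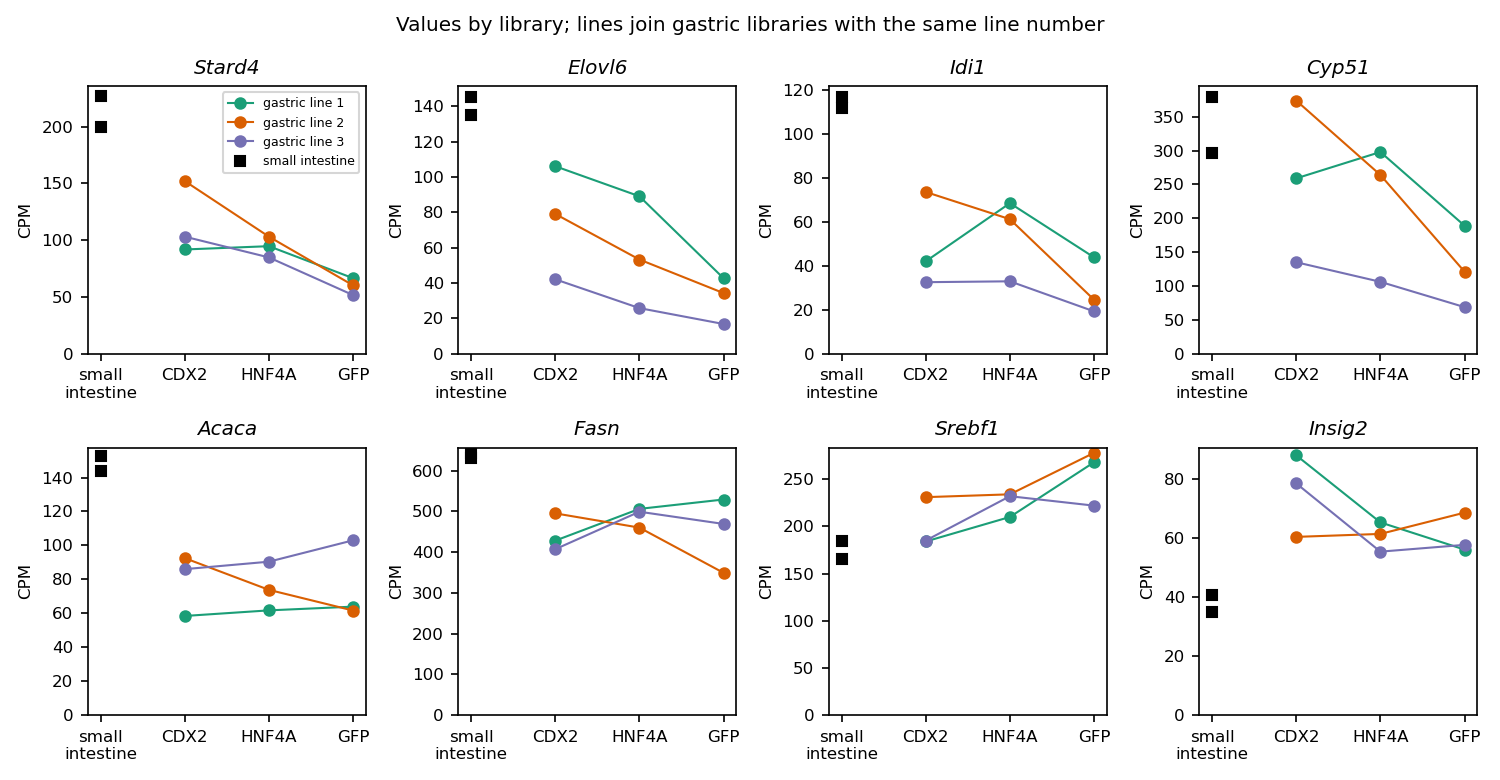
CPM of 8 genes by library on linear axes from 0, with small intestine libraries as black squares and gastric libraries as circles coloured and joined by line number. Line 3 is lowest in each gastric group for Elovl6 and Cyp51, and Insig2 and Srebf1 are lowest in small intestine organoids.

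CDX2 lines against GFP lines showed no called member, where 0.409% of all tested genes were called; before adjustment the p was under 0.05 for 3 members, Stard4, Elovl6 and Srebf1, and for 1430 genes in all. DESeq2 called 1 member, Stard4, where it called 493 genes in all. The fold change was positive for 27 of 29, with a median of 0.52. Without CDX2 2 the median was 0.16 and 9 members were negative, and without GFP 3 the median was 0.34. Line numbers paired the gastric libraries, since deviations from the group means correlated for every same-numbered pair. With line as a block 3 members were called higher, where 4.54% of all tested genes were called and 2.59% higher. This block was fitted on all 11 libraries, in which the small intestine libraries only share a number with the gastric lines. Elovl6 had a log2 fold change of 1.28 ± 0.16 (edgeR adjusted p = 0.00886 with the block, 0.341 without). Cyp51, at 259, 374 and 135 CPM in CDX2 lines and 189, 121 and 68.6 CPM in GFP lines, had 1.01 ± 0.21 (edgeR adjusted p = 0.0369 with the block, 0.485 without). Stard4 had 0.94 ± 0.16 (edgeR adjusted p = 0.0195 with the block, 0.0811 without). A block fitted on the 9 gastric libraries alone, chosen after seeing the data, called Tm7sf2 as well (0.63, edgeR adjusted p = 0.0333), where 9.67% of all tested genes were called. Without the block, Stard4 and Aacs were the 2 members with no overlap between CDX2 and GFP lines, both higher, where 16% of all tested genes had none and 8.23% were higher.

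The values of CDX2 against GFP libraries varied with the line number. In line 1, 14 of 29 members were higher in the CDX2 library, with a median log2 ratio of -0.01. In line 2, 27 were higher, with a median of 0.96, and in line 3, 21 were higher, with a median of 0.45. In line 2 the ratio was 1.97 for Hsd17b7, 1.62 for Cyp51 and 1.59 for Idi1. Elovl6 was the 1 member with a log2 ratio above 1 in all 3 lines, at 1.31, 1.21 and 1.33 in lines 1, 2 and 3. Higher in all 3 lines were 11 members, Pmvk, Mvd, Fdps, Cyp51, Tm7sf2, Nsdhl, Hsd17b7, Stard4, Aacs, Elovl6 and Scd1, where 20.7% of all tested genes were. Srebf1 was the 1 member lower in all 3, where 21.7% of all tested genes were.

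HNF4A lines against GFP lines also showed no called member, where 0.142% of all tested genes were called; before adjustment the p was under 0.05 for 3 members, Stard4, Hsd17b7 and Idi1, and for 733 genes in all. The count of members by DESeq2 was 0, where it called 221 genes in all. The fold change was positive for 26 of 29, with a median of 0.48 (0.25 without HNF4A 2, 0.74 without HNF4A 3 and 0.29 without GFP 3), and 25, 26 and 27 members were higher in lines 1, 2 and 3, with medians of 0.40, 0.64 and 0.33. Higher in all 3 lines were 23 of 29, where 23.5% of all tested genes were. The 6 others were Srebf1, Scap, Insig2, Acly, Acaca and Fasn. With line as a block 0 members were called, where 0.786% of all tested genes were. With the block fitted on the 9 gastric libraries Elovl6 was called (0.79, edgeR adjusted p = 0.0244), where 2.24% of all tested genes were called. Stard4, Aacs and Ebp were the 3 members without overlap, all higher, where 11.6% of all tested genes had none and 6.69% were higher. These counts and the CDX2 counts share the GFP libraries.

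**Figure D4:**
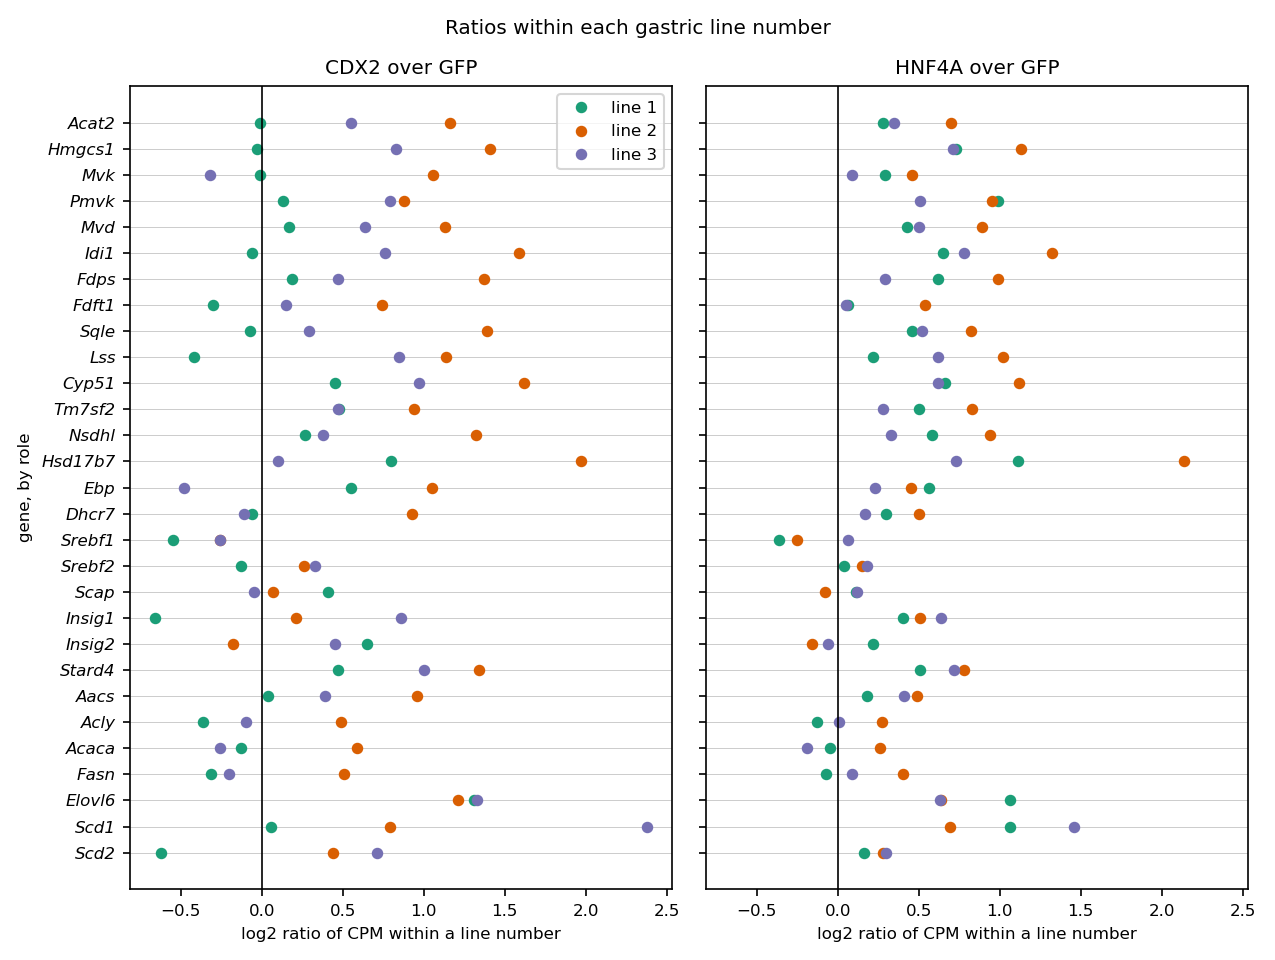
Log2 ratio of CPM to the GFP library of the same line number for the 29 genes, in CDX2 lines (left) and HNF4A lines (right), coloured by line. In the left panel line 2 lies furthest right for most enzymes and line 1 straddles 0, and in the right panel most points lie right of 0 in all 3 lines.

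CDX2 and HNF4A lines did not differ in any member by the test, where 0.0236% of all tested genes were called. Before adjustment 659 genes and 0 members had a p under 0.05. By DESeq2 0 members were called, where it called 139 genes in all. With line as a block 0 members were called, where 0.22% of all tested genes were. The median log2 fold change was 0.03, with 3, 24 and 17 members higher in the CDX2 library of lines 1, 2 and 3. No member had groups without overlap, where 8.32% of all tested genes did. The fold changes ran from -0.48 to 0.43.

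The members varied between lines of 1 gastric group. The ratio of the highest to the lowest library had a member median of 2.46 in CDX2 lines, 1.85 in HNF4A lines, 1.17 in small intestine organoids and 1.78 in GFP lines, where the median over all tested genes was 1.57, 1.52, 1.27 and 1.51. Scap, the escort of SREBP, was the steadiest member in HNF4A and GFP lines, at 1.05 and 1.10. Line 3 was lowest for 20 members in CDX2 lines, 23 in HNF4A lines and 22 in GFP lines. CDX2 2 was highest of the 9 gastric libraries for 20 members and GFP 3 lowest for 17. The 8 proliferation markers gave the same extremes: they summed to 568, 1140 and 609 CPM in CDX2 lines, 819, 953 and 857 CPM in HNF4A lines and 885, 829 and 558 CPM in GFP lines. Their part in the members' values was not tested.

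In the enhancer experiment no member differed by genotype in edgeR's test, where 0% of all tested genes were called in each comparison. Homozygous against wild-type organoids gave 578 genes and 0 members with an unadjusted p under 0.05, heterozygous against wild-type organoids 1125 genes and 1 member, and homozygous against heterozygous organoids 33 genes and 0 members. DESeq2 called 0 members in all 3, where it called 180, 327 and 1 genes in the same order. The members' fold changes against wild-type organoids were mostly negative and small: 26 of 29 in homozygous organoids (median -0.21) and 23 of 29 in heterozygous organoids (median -0.16), against 0 over all genes. The median in homozygous organoids was -0.49 without homozygous 2, -0.04 without homozygous 3, -0.06 without wild type 1 and -0.40 without wild type 2, and in heterozygous organoids it was -0.29 without heterozygous 2, -0.08 without heterozygous 3, -0.04 without wild type 1 and -0.34 without wild type 2. Not all fatty acid genes had that sign, with Scd1 at 0.30 and 0.66, Fasn at 0.13 and 0.19 and Acaca at 0.17 and 0.25 in homozygous and heterozygous organoids.

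Stard4 was the 1 member whose groups did not overlap, in both comparisons with wild-type organoids. It stood at 75.7, 116 and 47.6 CPM in homozygous, 99.5, 83.2 and 42.5 CPM in heterozygous and 120, 121 and 174 CPM in wild-type organoids. The log2 fold changes were -0.79 ± 0.38 in homozygous organoids (edgeR adjusted p = 0.999) and -0.88 ± 0.38 in heterozygous organoids (edgeR adjusted p = 0.554), and neither passed. Groups without overlap were seen in 8.9% of all tested genes in homozygous organoids (4.17% lower) and 14.9% in heterozygous organoids (6.15% lower). Between homozygous and heterozygous organoids no member had groups without overlap, where 1.95% of all tested genes did. For Idi1 the 3 genotypes overlapped, with 41.2, 88.3 and 37.1 CPM in homozygous, 53.7, 75.7 and 36.4 CPM in heterozygous and 98.6, 39.9 and 88.1 CPM in wild-type organoids. Wild type 2 was the lowest wild-type library for 25 members, homozygous 2 the highest homozygous library for 27 and heterozygous 2 the highest heterozygous library for 22. The proliferation markers summed to 799, 1550 and 1230 CPM in homozygous, 981, 1680 and 1190 CPM in heterozygous and 1540, 791 and 998 CPM in wild-type organoids, so homozygous 2 and heterozygous 2 were the highest of their groups and wild type 2 the lowest for these too.

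**Figure D5:**
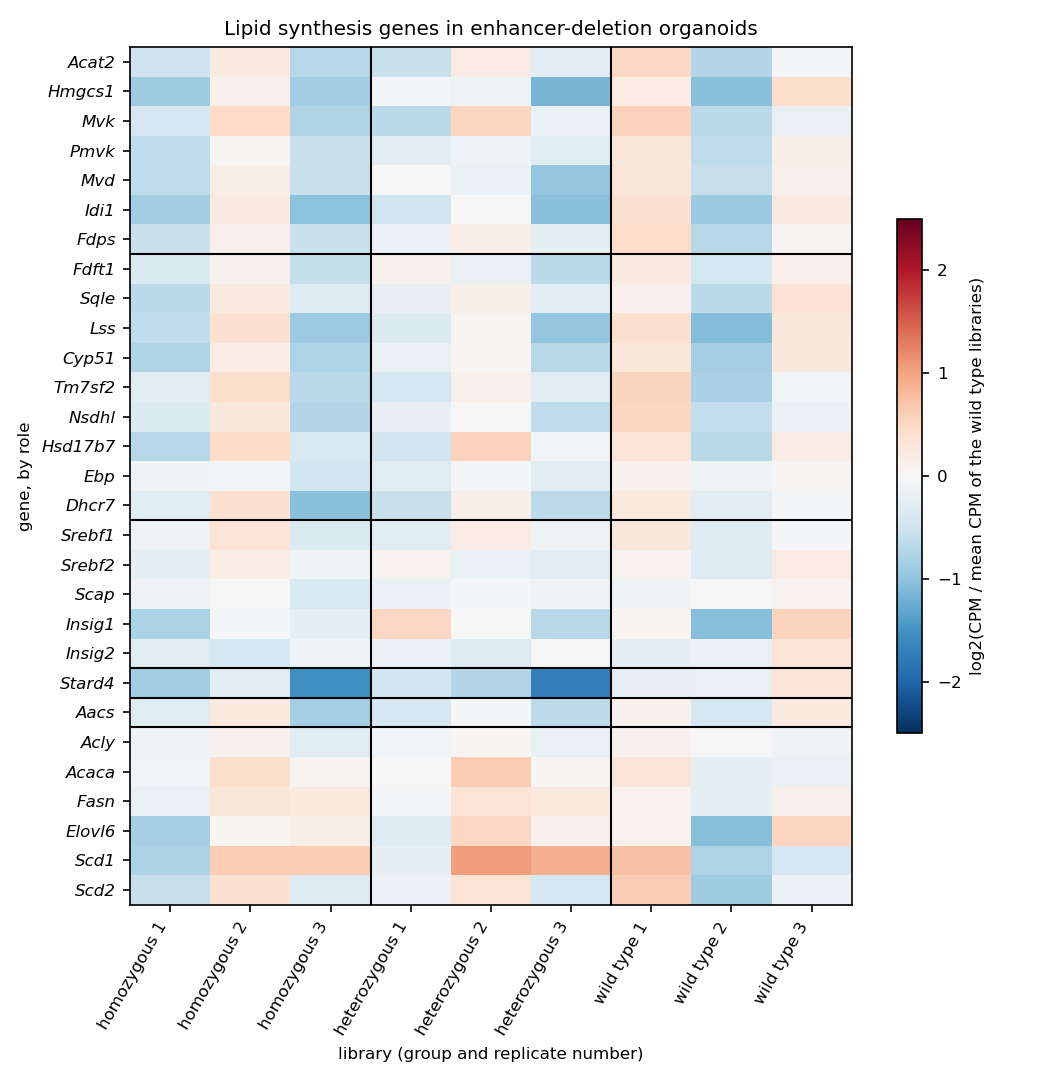
Heat map of the 29 genes (rows) in the 9 libraries of the enhancer experiment (columns), coloured by the log2 ratio of each library's CPM to the mean CPM of the wild-type libraries. Columns vary within each genotype, with homozygous 2 and heterozygous 2 redder and wild type 2 bluer than their groups, and Stard4 is bluest in homozygous 3 and heterozygous 3.

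Transcripts of other cells were present in the mutant libraries. The 12 fibroblast markers summed to 36.2 to 1060 CPM in homozygous, 99.1 to 1250 CPM in heterozygous and 3.31 to 5.94 CPM in wild-type organoids. Of the 12, 9, 11 and 9 were detected, with Lum at 0 in all. Dcn, Acta2, Thy1 and Postn stayed at 0.427 CPM or less in the mutant libraries. Vim, Col1a1, Sparc and Col6a3 reached 538, 320, 193 and 172 CPM there. Wnt3a, a factor supplied by medium-producing cells, was at 95.1, 196 and 2050 CPM in homozygous, 175, 1810 and 3100 CPM in heterozygous and 0, 0.241 and 4.33 CPM in wild-type organoids. The 5 epithelial markers summed to 3930 to 6290 CPM in homozygous, 3670 to 6560 CPM in heterozygous and 6240 to 9620 CPM in wild-type organoids. All 5 had negative fold changes in both comparisons, with medians of -0.47 and -0.54, and 2 and 3 of them were lower without overlap. The adipocyte gene Fabp4 reached 22.5 CPM in homozygous 3 and 48 CPM in heterozygous 3, against at most 0.127 CPM in wild-type organoids. Cidec, the other adipocyte marker tested, went the other way. It was at 7.66, 5.36 and 4.21 CPM in homozygous, 4.19, 4.69 and 4.54 CPM in heterozygous and 6.93, 7.58 and 17.1 CPM in wild-type organoids. Stard4 was lowest in homozygous 3 and heterozygous 3, which had the highest fibroblast sums of their groups. The order did not hold for homozygous 1, with a fibroblast sum of 36.2 CPM and Stard4 at 75.7 CPM. Homozygous 2 had a sum of 98.9 CPM and Stard4 at 116 CPM. In heterozygous 1 and 2 the sums were 99.1 and 832 CPM, and Stard4 was at 99.5 and 83.2 CPM. Leaving out the 3 libraries richest in fibroblast markers, homozygous 3, heterozygous 2 and heterozygous 3, left heterozygous 1 as the only library of its group. The members' median was then -0.04 in homozygous and -0.22 in heterozygous organoids, against -0.21 and -0.16 with all libraries. No member was called with all libraries, so calls cannot show an effect of leaving these out. The part of these transcripts in the fold changes was not tested.

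Related genes outside the 29 moved in different directions in small intestine organoids against GFP lines. In this comparison 14.2% of all tested genes were called higher and 12.9% lower. Of 12 tested other sterol genes 2 were called higher and 4 lower, with a median log2 fold change of -0.43. The sterol esterification gene Soat2 was at 36.3 CPM in small intestine organoids and 5.1 CPM in GFP lines (means; log2 fold change 2.82 ± 0.46, edgeR adjusted p = 0.00354), and Tmem97, a sterol-responsive membrane protein gene, was also higher (1.57, edgeR adjusted p = 0.0149). The other esterification gene Soat1 was lower (-1.26, edgeR adjusted p = 0.0261), as was the cholesterol efflux pump Abca1, at 1.68 CPM in small intestine organoids and 30.5 CPM in GFP lines (means, edgeR adjusted p = 0.0207). Abcg1 and Mylip, targets of the oxysterol receptor LXR, averaged 0.0931 and 0.334 CPM in small intestine organoids and 31.7 and 18.7 CPM in GFP lines. Of 14 other fatty acid genes 6 were called higher and 1 lower (median 0.83), led by the carbohydrate-response factor Mlxipl (3.54 ± 0.59, edgeR adjusted p = 0.00397), with the desaturases Fads1 (1.39) and Fads2 (0.84) and the acyl-CoA synthetases Acsl1 (0.82), Acsl3 (1.29) and Acsl5 (1.42); Acacb was lower (-3.03). Among fatty acid oxidation genes, Ehhadh (1.4, edgeR adjusted p = 0.00724) and Ppara (2.18, edgeR adjusted p = 0.0467) were called higher, and Acadl (-0.94, edgeR adjusted p = 0.0231) was called lower, as was Pdk4, which averaged 0.11 CPM in small intestine organoids and 1.76 CPM in GFP lines. Of the 3 lists 0 genes were called between gastric groups without the block and between genotypes. With line as a block, 4 of 14 other fatty acid genes were called higher and 2 of 12 other sterol genes lower in CDX2 against GFP lines. There 4.54% of all tested genes were called, 2.59% higher. In HNF4A against GFP lines 1 gene of each list was called higher, where 0.786% of all tested genes were called.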

How the data were processed

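RNA was extracted from mouse organoids freed from gel, and poly-A libraries were sequenced as paired reads, per the labels' protocols. The deposited values are raw counts of reads per gene symbol; per the submitters' processing notes STAR and mm10 were used, with Bowtie2, Cell Ranger and hg19 also named for the lines without a role. The counting program, strand setting and gene models were not given in the sources used here. The titles and tissue tag of the CDX2, HNF4A and GFP lines give gastric organoids, and another label field of these samples gives small intestine; the titles and tag were followed.

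The counts were tested in R 4.3.3 with edgeR 4.0.16 (TMM scaling, minimum count 10, minimum total 15, robust quasi-likelihood F test, two-sided), in 1 fit of 11 libraries and 1 of 9, with p-values adjusted over all genes tested and called under 0.05. Alternatives were DESeq2 1.42.0, limma 3.58.1 (voom), DESeq2-type size factors, no count filter, the 2 groups alone, the replicate number as a block, and leaving out libraries. The fit was tested on simulated data. Line numbers paired the gastric libraries: in 9 same-numbered pairs the correlation of deviations from the group means ran from 0.363 to 0.785. It was 0.246 to 0.517 between homozygous and heterozygous libraries. All 29 members are named, and of the related lists only genes called in a comparison; 1 such gene is not reported here. The members and lists were chosen with earlier results of these data known. Positions and sequences are RefSeq's on GRCm38.p6. Spread between libraries, not counting error, limits the values: the chi-square per degree of freedom between replicates was at least 22.7.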

Additional observations from a re-analysis of the deposited data

How the results depend on the processing

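No member called in either fit changed sign under any alternative run. Of 3393 fold changes of members under alternatives 229 had the opposite sign, all of members not called, 66 of them in homozygous against heterozygous organoids and 61 in CDX2 against HNF4A lines. Without CDX2 2, Mvk, Fdft1 and Dhcr7 were at -0.10, -0.08 and -0.14 in CDX2 against GFP lines. With the replicate block, Insig1 was at -0.21 in small intestine organoids against GFP lines and Hmgcs1 at -0.24 against CDX2 lines. Counts of called members moved as follows. For CDX2 against GFP lines, 0 in the fit without a block, it was 1 with DESeq2 (493 genes in all, against 52). It was 3 with the replicate block (578 in all) and 4 with the block on 9 gastric libraries (1188 in all). For HNF4A against GFP lines, 0, it was 1 with the block on 9 gastric libraries (275 genes in all, against 18). For small intestine organoids against CDX2 lines, 2, it was 5 with DESeq2 and 9 with the replicate block (2675 and 2942 genes in all, against 1437). It was 0 with only the 2 groups and 0 without line 3 (70 and 566 genes in all). When 1 CDX2 library was left out it was 1 to 6. Against HNF4A lines, 4, it was 6 with DESeq2, 3 with voom and 3 without a count filter (2791, 1441 and 1381 genes in all, against 1585). It was 8 with the replicate block, 2 with only the 2 groups and 2 without line 3 (3061, 559 and 989 genes in all). When 1 HNF4A library was left out it was 1. Against GFP lines, 16, it was 21 with DESeq2, 18 with voom and 13 without a count filter (4493, 3340 and 3191 genes in all, against 3448). It was 17 without line 3 and 20 with the replicate block (3271 and 4966 genes in all). When 1 GFP library was left out it was 6 to 11. In the 3 intestinal comparisons fewer of all tested genes were called when 1 library was left out. The highest such counts were 2689 against GFP lines, 1401 against CDX2 lines and 1423 against HNF4A lines. The cause of these shifts was not tested. Intestinal numbers only share a number with the gastric ones (correlations of -0.144 to 0.121 over 6 pairs), as do mutant and wild-type numbers. The block changed no member's call in the enhancer experiment.

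Over all genes, CDX2 against GFP lines gave 52 calls, 493 with DESeq2, 4 with voom, 578 with the block, 14 with only the 2 groups and 1188 with the block on 9 gastric libraries. HNF4A against GFP lines gave 18, and 221, 5, 100, 13 and 275 under the same settings; CDX2 against HNF4A lines gave 3, and 139, 2, 28, 0 and 169. Small intestine against CDX2 lines gave 1437, 2675 with DESeq2, 2942 with the block, 70 with only the 2 groups and 566 without line 3; against HNF4A lines 1585, and 2791, 3061, 559 and 989. In the enhancer experiment DESeq2 called 180, 327 and 1 genes in homozygous against wild type, heterozygous against wild type and homozygous against heterozygous organoids, and the block 5, 51 and 0.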
